A study of Rattus norvegicus with 6 samples.

Results

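The hypoxia-inducible factor (HIF) subunits, the hydroxylases that sense oxygen for them, the von Hippel-Lindau protein Vhl and the HIF antagonist Cited2 were followed in metrial gland of pregnant rats after a week of low oxygen. The genes were taken by symbol from the platform annotation, and every probe set with a single one of these symbols was used, which gave 14 probe sets for 10 of 11 genes, out of 31042 probe sets and 14217 named genes in all. The asparaginyl hydroxylase Hif1an had no probe set under that symbol and was not analysed here. Of the 14 probe sets, 13 were kept by a filter that left out the 40% of probe sets with the lowest mean over all arrays, and the exception was that of Hif3a. The samples were 3 arrays of metrial gland from dams held at 10.5% oxygen (hypoxia) between gestation days 6.5 and 13.5, and 3 arrays from dams in ambient air at 21% oxygen. In the rat, the metrial gland forms in the uterine wall behind each placenta, is rich in natural killer cells, decidual stroma and vessels, and is entered by migrating trophoblast. No genotype, strain or age of the dams is given in the sources used here, and no label says that replicates came from separate dams, so a p-value here measures only how far these arrays scatter, which may be a technical spread.

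HIF is a pair of proteins, an oxygen-regulated alpha subunit (Hif1a, Epas1 or Hif3a) and a stable partner (Arnt or Arnt2). With oxygen present, the prolyl hydroxylases Egln1, Egln2 and Egln3 mark the alpha subunit, Vhl recognises the mark as part of a ubiquitin ligase, and the subunit is destroyed. The asparaginyl hydroxylase Hif1an blocks binding of the coactivators Ep300 and Crebbp, and Cited2 competes with the alpha subunit for the same coactivators. Egln1, Egln3, Hif3a and Cited2 are themselves known to be induced by HIF in many cells, and the alpha subunits are controlled mainly as proteins, which an mRNA array does not measure.

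Cited2 was higher in hypoxia at 1 of its 2 probe sets by 1.44-fold, and its other probe set gave 1.30-fold with an adjusted p of 0.0539, just short of the threshold. Arnt2 was higher by 1.59-fold at 1 probe set, while its other gave 0.913-fold and was not called. The mRNAs of Hif1a and Epas1, the oxygen-regulated subunits, were not called, with 95% intervals of the fold from 0.95 to 1.14 for Hif1a, from 0.968 to 1.10 for the brighter Epas1 probe set and from 0.787 to 1.14 for the other. Egln1 gave 1.17-fold at its brighter probe set and Arnt 0.768-fold, both with groups that did not overlap and neither past the threshold of an adjusted p of 0.05. At its dimmer probe set Egln1 gave 0.996-fold, with groups that overlapped. Of the 13 kept probe sets, 2 were called higher (1 of Arnt2 and 1 of Cited2) and 0 lower by limma with Benjamini-Hochberg adjustment over all 18625 kept probe sets, and 5 (38.5%) had an unadjusted p under 0.05, against 23.7% of all kept probe sets. For the calls, that is 15.4% called, against 5.99% of all kept probe sets, of which 4.02% were higher and 1.97% lower. Groups did not overlap at 7 of the 13 probe sets (53.8%), against 29.9% of all kept probe sets. The median difference, hypoxia minus ambient, was 0.06 on the log2 scale over the 13 and 0.00 (0.00335) over all 18625. Leaving out any 1 hypoxia array left 1 call, and leaving out any 1 ambient array left 0. The remaining call was Arnt2 without hypoxia replicate 1, the other Cited2 probe set without hypoxia replicate 2, and the called Cited2 probe set without hypoxia replicate 3.

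**Figure D1:**
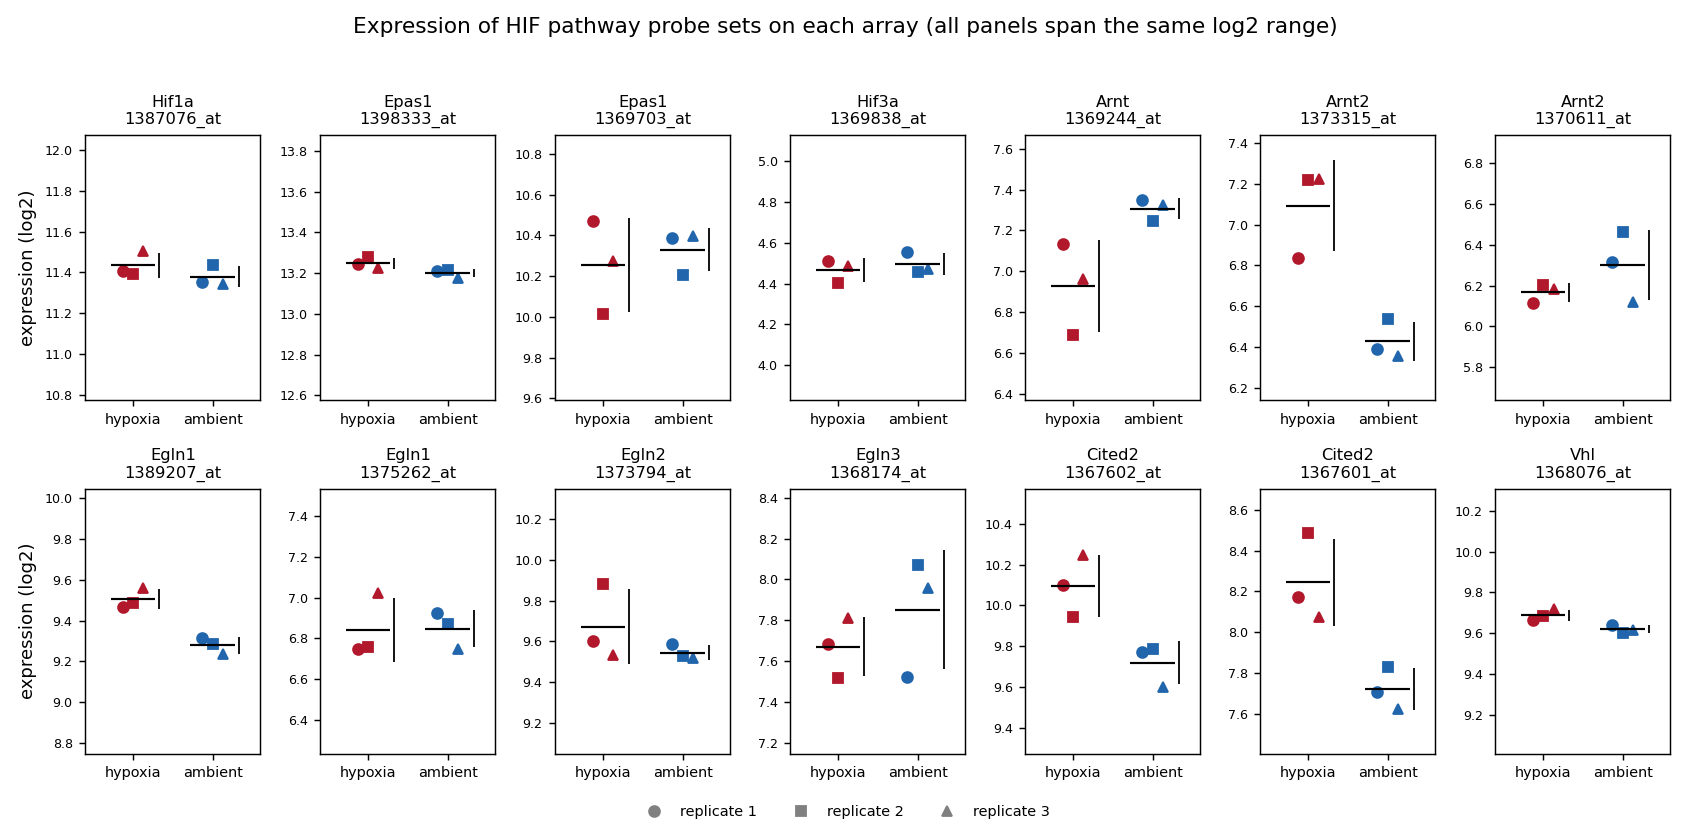
Expression on the log2 scale of each probe set on each array, hypoxia left and ambient right in every panel. Points are arrays (shape gives the replicate number), horizontal lines group means and vertical lines 1 SD. Cited2 is higher in hypoxia in both panels, Arnt2 in 1 of its 2, and Hif1a and Epas1 lie at like levels in both groups.

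The arrays themselves bear on these values as follows. Probe sets for bacterial transcripts, a guide to background, reached at most 5.0 on any array. The array medians lay between 6.44 and 6.47. For beta-actin, the control whose 3' probes exceed its 5' probes the more RNA is degraded, this excess was 0.58, 0.77 and 0.66 on the hypoxia arrays, against 0.53, 0.54 and 0.41 on the ambient arrays, groups that did not overlap. For GAPDH the excess lay between -0.04 and 0.06 in hypoxia and between -0.05 and -0.01 in ambient. Differences below are log2 values, hypoxia minus ambient, with standard error (SE), and levels of different probe sets are not comparable. Where 1 probe set is subtracted from another on the same array, only the change of that difference between the groups is read.

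Cited2, a CBP/p300-interacting transactivator that limits HIF activity and is needed for placental development in mice, was measured by 2 probe sets. At probe set 1367601_at it read 8.17, 8.48 and 8.07 on the hypoxia arrays, against 7.71, 7.83 and 7.62 on the ambient arrays. Every hypoxia array lay above every ambient array, and replicate 2 was the highest of its group in both. The difference was 0.52 (SE 0.12, 95% interval 0.25 to 0.79, adjusted p = 0.0431). At probe set 1367602_at it read 10.10, 9.94 and 10.25 in hypoxia, against 9.77, 9.79 and 9.60 in ambient. The groups were again apart, with a difference of 0.38 (SE 0.09, interval 0.16 to 0.59) and an adjusted p of 0.0539. The probe sets thus had the same direction. Within hypoxia they did not order the arrays alike, since replicate 2 was highest at the first and lowest at the second.

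The Cited2 call at 1367601_at held without hypoxia replicate 3 (adjusted p = 0.0359) and was lost without any other single array (0.0778 to 0.145) and with no mean-variance trend (0.0519). At 1367602_at the call was made under 3 alternatives: when hypoxia replicate 2 was dropped (adjusted p = 0.0486), when arrays were weighted (0.0347) and when the lowest 60% of probe sets were removed (0.0497). Over all 15 alternatives the difference stayed between 0.40 and 0.61 at the first and between 0.30 and 0.45 at the second.

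Because Egln1, Egln3, Hif3a and Cited2 are known HIF targets, the starts of all 11 genes were searched for the core of the HIF binding site. The core was ACGTG or GCGTG on either strand, in a window from 250 bases before to 50 after the start, from RefSeq on build GRCr8. The core was present in the window of 5 of the 11 genes (Hif1a, Hif3a, Arnt, Egln1 and Cited2) and in 41.6% of all 33469 windows, so a match is common and is given as a description. All 11 genes had a window (Hif3a had 2, with the core in 1). The start is that of the RefSeq window, which for Cited2 and Egln1 is the outermost start of the gene and for Arnt2 is not. Of the known targets, Egln3, which had no core, and Hif3a, which lay at background, are not shown. The 250 bases before the start are shown for Cited2, for Egln1 and, as the other gene with a call, for Arnt2. Each is given 5' to 3' on the gene's strand, with the core in capitals. They lie at chr1:14132053-14132302 (plus strand), chr19:69804682-69804931 (minus strand) and chr1:147801884-147802133 (minus strand).
Cited2: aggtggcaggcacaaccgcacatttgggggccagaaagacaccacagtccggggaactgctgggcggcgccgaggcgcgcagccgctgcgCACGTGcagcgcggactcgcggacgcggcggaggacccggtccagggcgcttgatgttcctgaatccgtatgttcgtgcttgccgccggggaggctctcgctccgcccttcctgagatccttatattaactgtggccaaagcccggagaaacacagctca
Egln1: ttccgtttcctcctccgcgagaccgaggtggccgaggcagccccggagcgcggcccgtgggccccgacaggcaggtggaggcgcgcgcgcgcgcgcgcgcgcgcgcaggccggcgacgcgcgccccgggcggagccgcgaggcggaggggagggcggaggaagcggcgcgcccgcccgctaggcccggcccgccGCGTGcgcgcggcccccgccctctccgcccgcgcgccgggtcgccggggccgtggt
Arnt2: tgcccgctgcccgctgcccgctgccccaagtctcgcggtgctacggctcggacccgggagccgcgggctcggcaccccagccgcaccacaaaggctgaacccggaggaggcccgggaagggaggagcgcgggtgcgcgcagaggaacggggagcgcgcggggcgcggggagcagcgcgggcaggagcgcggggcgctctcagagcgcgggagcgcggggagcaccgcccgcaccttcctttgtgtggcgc
In Cited2 the core lay within CACGTG, which reads as a core on both strands (leftmost bases -160 and -159, counted back from the start as -1). CACGTG itself was in 6.42% of all windows and, among these genes, in those of Cited2 and Hif1a. Egln1 had the core at -56 and again at base 3 after the start, outside the stretch shown. Arnt2 had none in its window, nor had Epas1, Egln2, Egln3, Vhl or Hif1an. Arnt had the core at -42, and Hif1a had it at -164 besides its CACGTG.

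Among the oxygen-regulated alpha subunits, Hif1a read 11.41, 11.39 and 11.50 on the hypoxia arrays, against 11.35, 11.44 and 11.34 on the ambient arrays. The groups overlapped. The difference was 0.06 (SE 0.06, interval -0.07 to 0.19), or 1.04-fold with an interval from 0.95 to 1.14, and did not pass (adjusted p = 0.59). It lay between 0.02 and 0.09 over the 15 alternatives.

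Epas1 (HIF-2 alpha), the alpha subunit prominent in endothelium, read 13.24, 13.28 and 13.22 in hypoxia, against 13.21, 13.22 and 13.18 in ambient, at the brighter probe set, 1398333_at. The groups were just apart, but the difference was only 0.05 (SE 0.04, interval -0.05 to 0.14, adjusted p = 0.53), or 1.03-fold with an interval from 0.968 to 1.10. At the second probe set, 1369703_at, Epas1 read 10.47, 10.01 and 10.28 in hypoxia, against 10.39, 10.21 and 10.40 in ambient. Hypoxia replicate 2 was the lowest array and hypoxia replicate 1 the highest, and the difference was -0.08 (interval -0.35 to 0.19, adjusted p = 0.726). The sign differed between the 2 probe sets of Epas1 and neither was called.

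The balance of the 2 alpha subunits was compared within arrays, where the scaling of an array cancels. Epas1 at its brighter probe set minus Hif1a at its only one averaged 1.81 ± 0.08 in hypoxia and 1.82 ± 0.04 in ambient (SD, n = 3 each). The change was -0.01, with an exact permutation p of 0.9 (two-sided; 3 against 3 cannot go below 0.1). Its sign turned when either hypoxia replicate 3 (0.04) or ambient replicate 1 (0.01) was dropped.

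Hif3a, whose products include inhibitors of the other alpha subunits, was not above the highest bacterial control on any of the 6 arrays. Its probe set read 4.51, 4.40 and 4.48 in hypoxia, against 4.56, 4.46 and 4.47 in ambient. No fold or difference is given for it.

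Of the stable partners, Arnt (HIF-1 beta) read 7.13, 6.69 and 6.96 on the hypoxia arrays, against 7.35, 7.25 and 7.33 on the ambient arrays. All 3 hypoxia arrays were below all ambient arrays, and replicate 2 was lowest in both groups. The difference was -0.38 (SE 0.12, interval -0.65 to -0.11), with an unadjusted p of 0.0123 and an adjusted p of 0.101 by limma, so it did not pass. It was negative under all 14 alternatives that gave a value, between -0.48 and -0.26, with adjusted p between 0.0719 and 0.239. The SD of Arnt was 0.22 in hypoxia and 0.05 in ambient.

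Arnt2, the partner best known from neurons, differed between its probe sets. At 1373315_at it read 6.84, 7.22 and 7.22 in hypoxia, against 6.39, 6.54 and 6.36 in ambient. The groups were apart and the difference was 0.67 (SE 0.12, interval 0.38 to 0.95, adjusted p = 0.0254). At 1370611_at it read 6.11, 6.20 and 6.18 in hypoxia, against 6.32, 6.46 and 6.12 in ambient, groups that overlapped, with a difference of -0.13 (interval -0.37 to 0.11, adjusted p = 0.489). Worked out after this disagreement was seen, and so only a description of it, the first minus the second on the same array was 0.93 ± 0.18 in hypoxia and 0.13 ± 0.09 in ambient (SD, n = 3 each). The annotation gives both probe sets the same gene, and which part of the transcript each reads is not given in the sources used here, so the call is given for the probe set.

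The call at 1373315_at held without hypoxia replicate 1 (adjusted p = 0.0185) and was lost without any other single array (0.0521 to 0.0969). Its difference was 0.42 when 64 was added on the linear scale before taking logs, which weighs low signals less, and the call held there (adjusted p = 0.027). Compared within arrays after these values were seen, Arnt2 at 1373315_at minus Arnt averaged 0.17 ± 0.42 in hypoxia and -0.88 ± 0.15 in ambient. The change was 1.05, with no overlap, and is given as a description. With the other Arnt2 probe set the same comparison gave -0.76 ± 0.27 in hypoxia and -1.01 ± 0.21 in ambient, a change of 0.25 with overlap.

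**Figure D2:**
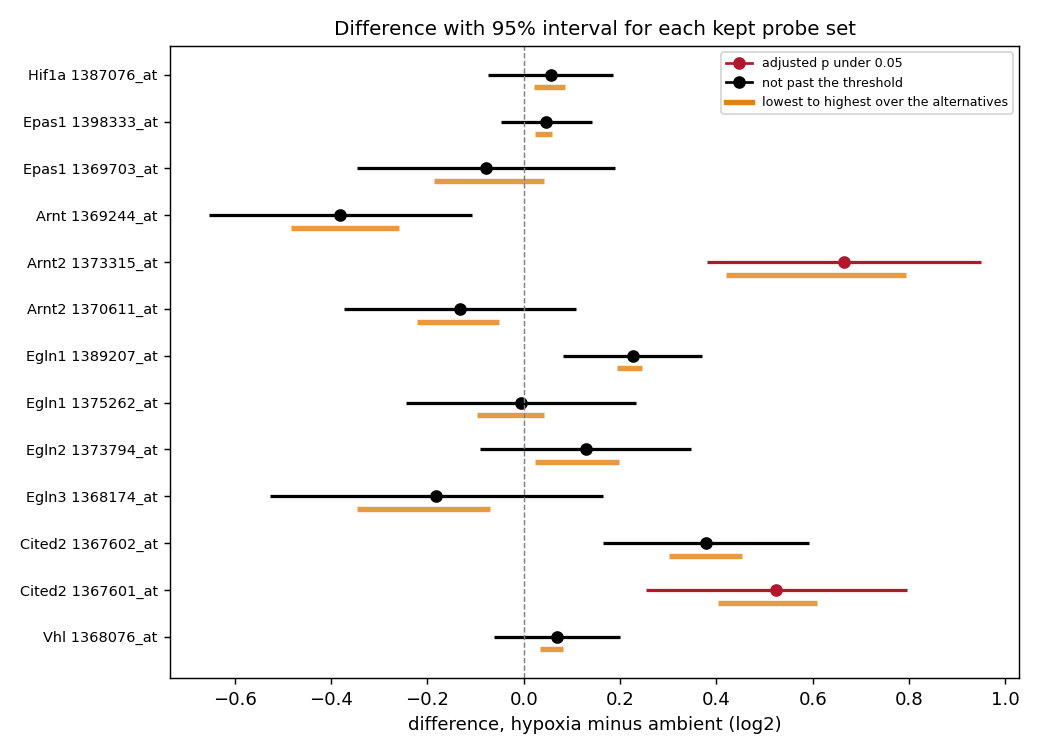
Difference, hypoxia minus ambient, on the log2 scale for each kept probe set (point) with its 95% interval from limma (line). The orange bar under each spans the lowest to highest difference over the alternative settings, and the interval of Arnt2 at 1373315_at, from 0.38 to 0.95, lies apart from that of its other probe set, which ends at 0.11.

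Of the prolyl hydroxylases, Egln1 (PHD2), the main one that limits Hif1a in most cells, read 9.47, 9.49 and 9.56 on the hypoxia arrays, against 9.32, 9.29 and 9.23 on the ambient arrays, at probe set 1389207_at. The groups did not overlap and their SDs were 0.05 and 0.04. The difference was 0.23 (SE 0.06, interval 0.08 to 0.37, unadjusted p = 0.00679 by limma), and the adjusted p of 0.0747 did not pass. It lay between 0.19 and 0.24 over 15 alternatives, with adjusted p from 0.0622 to 0.208. The dimmer probe set, 1375262_at, read 6.75, 6.76 and 7.02 in hypoxia, against 6.92, 6.87 and 6.75 in ambient, with a difference of -0.01 (interval -0.25 to 0.23). The groups overlapped there, unlike at the brighter probe set.

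Egln2 (PHD1), which is known to respond little to low oxygen, read 9.60, 9.88 and 9.53 in hypoxia, against 9.59, 9.53 and 9.52 in ambient. Only hypoxia replicate 2 stood away from the other arrays. The difference was 0.13 (interval -0.09 to 0.35, adjusted p = 0.458) and fell to 0.02 without that array.

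Egln3 (PHD3), in many cells the hydroxylase most strongly induced by HIF, read 7.68, 7.52 and 7.81 on the hypoxia arrays, against 7.52, 8.07 and 7.96 on the ambient arrays. The groups overlapped through ambient replicate 1, which read about as low as the lowest hypoxia array. The difference was -0.18 (SE 0.15, interval -0.53 to 0.16, adjusted p = 0.509), a fold of 0.882 with an interval from 0.694 to 1.12. Dropping ambient replicate 1 gave -0.35 and dropping ambient replicate 2 gave -0.07, and the difference was negative under all 15 alternatives, none of them with a call.

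Egln3 minus Egln1 (at 1389207_at) averaged -1.84 ± 0.12 in hypoxia and -1.43 ± 0.32 in ambient within arrays, a change of -0.41 (SD, n = 3 each; exact permutation p = 0.3, two-sided). The overlap came from ambient replicate 1, at -1.80, and without it the change was -0.59. Egln1 itself differed by 0.23 at 1389207_at, and by -0.01 at 1375262_at, which these values leave out.

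Vhl, which binds the hydroxylated alpha subunit, read 9.66, 9.68 and 9.72 in hypoxia, against 9.64, 9.60 and 9.62 in ambient. The groups were just apart, and the difference was 0.07 (SE 0.06, interval -0.06 to 0.20, adjusted p = 0.512), or 1.05-fold with an interval from 0.958 to 1.15.

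**Figure D3:**
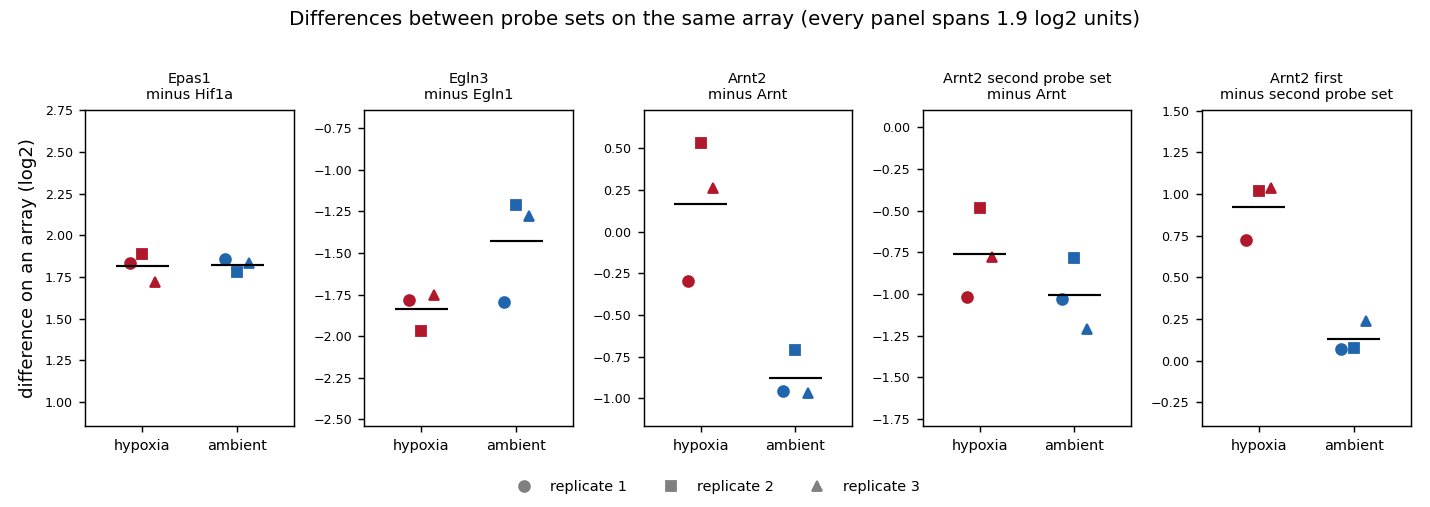
Difference between 2 probe sets on the same array (log2), hypoxia left and ambient right in each panel; points are arrays and lines are means. Epas1 at its brighter probe set, 1398333_at, minus Hif1a is alike in both groups (1.81 and 1.82). Arnt2 at 1373315_at minus its other probe set is 0.93 in hypoxia and 0.13 in ambient. All panels but those of Epas1 minus Hif1a and Egln3 minus Egln1 were chosen after the values were seen.

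Proteins that destroy, stabilise or assist HIF were taken as a list of 26 genes, which holds Vhl again. Of the 26 genes, 24 were measured. Of these 0 were higher, 3 lower and 21 not called by limma, against 4.02% higher and 1.97% lower over all kept probe sets. The median difference was -0.07, against 0.00335 over all kept probe sets. The 3 were Ncoa3, Siah2 and Hsp90ab1. Ncoa3, a steroid receptor coactivator, differed by -0.41 (SE 0.08, adjusted p = 0.0319), and by -0.39 without a call at a second probe set. Siah2, a ubiquitin ligase that targets Egln3, differed by -0.37 (SE 0.08, adjusted p = 0.0429). Hsp90ab1, a chaperone that binds Hif1a, differed by -0.25 (SE 0.06, adjusted p = 0.0494), and by -0.38 with a call at a second probe set. Counted at the brightest kept probe set of each gene, the list had 0 lower genes without any 1 array. It had 1 without the filter on low means. The second probe set of Hsp90ab1, which this count leaves out, was called under 10 of 15 alternatives, of which 6 leave out 1 array.

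Partners of Vhl and Cited2 were singled out for their roles after their values were seen. In the ubiquitin ligase, Elob differed by 0.08, Eloc by -0.08 (0.23 at its other kept probe set), Cul2 by 0.15 (-0.04 at its other) and Rbx1 by -0.10 (-0.09 at its other), none past the threshold. The coactivators for which Cited2 and the alpha subunits compete differed by 0.01 (Ep300, interval -0.13 to 0.15) and -0.10 (Crebbp, interval -0.28 to 0.08; 0.27 and 0.01 at its other kept probe sets, not called). Cited4, a relative of Cited2, was higher by 0.55 (SE 0.14) with an adjusted p of 0.0621, and passed with weighted arrays (0.0444) and under the replicate block (0.0288).

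Other bHLH-PAS proteins, listed together with the PAS proteins of the Per family as relatives of the HIF subunits, numbered 14, with 6 measured. Those 6 were all clock proteins, and the xenobiotic sensor Ahr was left out by the filter on low means. By limma 0 of the 6 were called in either direction, against 5.99% of all kept probe sets. An unadjusted p under 0.05 was found for 3, against 23.7%, and the median difference was 0.16, against 0.00335. Bmal1, a clock protein, differed by 0.36 (adjusted p = 0.0812) and Npas2, its partner, by 0.41 (adjusted p = 0.105). Per2, the third, went the other way, by -0.26 with groups apart (adjusted p = 0.138). At its other kept probe set Per2 differed by -0.07. Bmal1 passed with array weights (0.0498) and Npas2 when hypoxia replicate 1 was dropped (0.0192).

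Of 38 genes that HIF is known to induce, 35 were measured, and 5 were higher, 0 lower and 30 not called, with a median difference of 0.03. Over all kept probe sets, 4.02% were higher. An unadjusted p under 0.05 was found for 14 of the 35, against 4422 of all 18625 kept probe sets (23.7%). With the lowest 60% of probe sets left out, 3282 of 12417 had one. These shares are not limited to the brightest kept probe set of a gene, as the list is. Those 14 included Ankrd37 (-0.68, SE 0.20, adjusted p = 0.0835, groups apart) and Ddit4 (-0.29, adjusted p = 0.176), named after their values were seen as the ones with a negative difference. The 5 were P4ha1 and P4ha2, collagen prolyl hydroxylases, Bnip3 and Bnip3l, mitophagy receptors, and Slc16a3, a lactate exporter, by 0.32 to 0.49 (Bnip3l being named as the only other called gene; P4ha2 by 0.07 and Bnip3l by 0.13 at second probe sets, not called). The count was 3 when hypoxia replicate 1, hypoxia replicate 2 or ambient replicate 1 was dropped, 2 when ambient replicate 2 was, and 0 when ambient replicate 3 was. Epo was not above the highest bacterial control on any array.

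**Figure D4:**
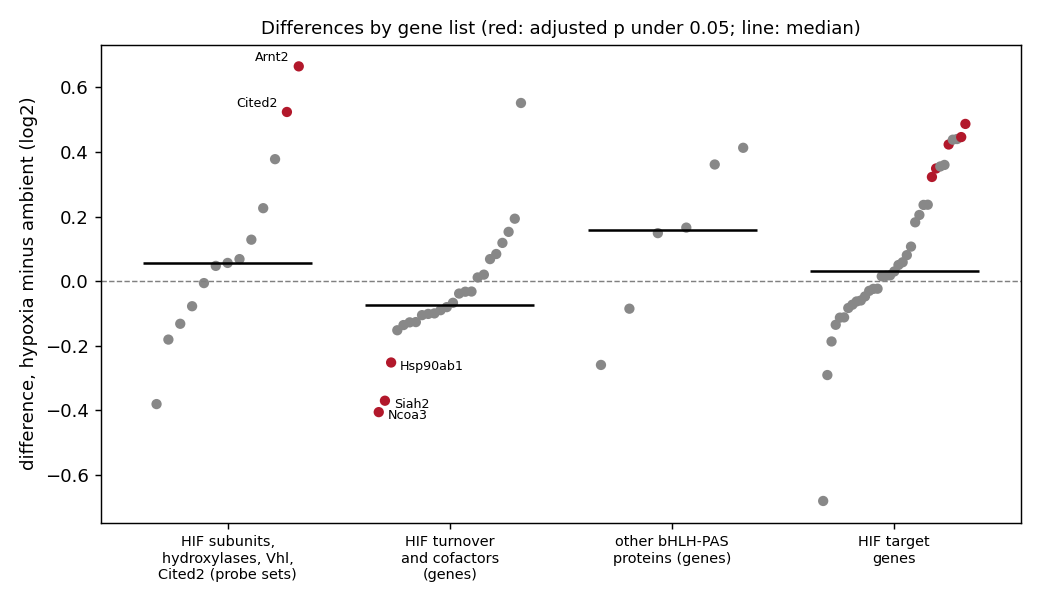
Difference, hypoxia minus ambient (log2), of each kept probe set of the HIF subunits, hydroxylases, Vhl and Cited2, and of each measured gene of 3 related lists. Vhl is drawn both in the leftmost group and in the list of HIF turnover and cofactors. Red points passed an adjusted p of 0.05 and lines mark medians (0.06, -0.07, 0.16 and 0.03 from left to right); the 5 red points on the right are P4ha1, P4ha2, Bnip3, Bnip3l and Slc16a3.

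The genes whose expression followed the called probe sets most closely over the 6 arrays were, for Arnt2 at 1373315_at, Zfp612 (Pearson r = 0.995), Rassf4 (0.992) and Pex19 (0.990). For Cited2 at 1367601_at they were Irf3 (0.998), Pakap (0.996) and Frs2 (0.992). These are descriptions over 6 arrays that include the group difference itself, and the 6 genes differed by 0.18 to 0.68 between groups, of which Zfp612 and Rassf4 passed the threshold.

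Markers of several cell types moved with the groups. In bulk tissue, more cells of a type and more RNA per cell cannot be told apart. Beside the counts below, 4.02% of all kept probe sets were called higher and 1.97% lower. Of 15 trophoblast markers measured, 12 were higher and 0 lower in hypoxia, and their summed linear signal was 18613 to 25572 on the hypoxia arrays, against 3481 to 9307 on the ambient arrays. Of 15 endothelial markers, 10 were higher and 0 lower (summed 10327 to 11042 in hypoxia, against 8332 to 8976 in ambient), with a median difference of 0.48. Of 9 natural killer cell markers, 0 were higher and 4 lower (38106 to 42046 in hypoxia, against 46575 to 53243 in ambient). The only 1 of the 9 with a positive difference was Klrd1 (0.52, unadjusted p = 0.0417 by limma, not called). Of 5 erythroid markers 3 were higher and 0 lower (17639 to 22161, against 7358 to 10209 in ambient). Most of that sum was Hbb, with a mean of 14.21 in hypoxia and 12.93 in ambient (log2). Epor, also among the 5, differed by -0.27 with groups apart (unadjusted p = 0.0201 by limma, not called). Of 9 decidual stroma markers 3 were higher and 0 lower (27899 to 39489, against 22104 to 24323 in ambient). Of 7 smooth muscle and pericyte markers 0 were called, with 3 at an unadjusted p under 0.05 (14326 to 20895, against 14855 to 20980 in ambient). The defining markers Prf1, Plac1, Hbb, Pecam1, Acta2 and Prl8a2 were above the bacterial controls on all 6 arrays, and Cdh5 had no probe set under that symbol. Gzma, Gata1, Elf5, Gcm1 and the trophoblast marker Prl3d1, which the annotation names Rpl-1, were above those controls on none. The part of these shifts, and of the beta-actin 3' to 5' signal, in the differences of Cited2, Arnt2, Arnt and Egln1 was not tested.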

How the data were processed

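Per the labels, the RNA was prepared with Trizol and hybridised, biotin-labelled, to one-colour Affymetrix arrays. What the authors deposited is a log2 value for each probe set on each array, a scale read from the values (2.98 to 14.90). MAS5 and Affymetrix Expression Console appear in the submitters' processing notes, without versions. How background and scaling were handled is not stated there. A method that equalises the arrays hides shifts shared by most genes.

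From 31099 probe sets, 57 controls and the 12417 with the lowest means (below 5.74) were left out. The other 18625 were fitted with limma 3.58.1 in R 4.3.3 (lmFit, then eBayes with a mean-variance trend, group as the only term), two-sided, with Benjamini-Hochberg adjustment over all of them and a threshold of 0.05. Intervals are limma's 95%. A gene of a list is represented by its kept probe set with the highest mean. Differences within arrays were tested with an exact permutation test (SciPy 1.17.1). The fit was tested on simulated data. Alternatives were other filters, quantile normalization, median centring, an offset of 64, no or robust trend, array weights, a replicate block and leaving out each array. Symbols came from the platform annotation and RefSeq's GRCr8 gene table, which held 20758 of 20826 single symbols.

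Named genes are all members, up to 4 called genes of a related list (or the 2 with the smallest p), the 3 genes most correlated with each called member, and fixed markers. Other genes (Bnip3l, Ankrd37, Ddit4, Epo, Cited4, Per2, Ahr, Epor, Klrd1 and the partners of Vhl and Cited2) were named after their values were seen. The members and lists were chosen with earlier results of these data known. The number of arrays limits the precision.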

Additional observations from a re-analysis of the deposited data

How the results depend on the processing

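Over all kept probe sets, 749 were higher and 367 lower. The total of 1116 was 1317 with the replicate block and 267 (without ambient replicate 3) to 1029 (without hypoxia replicate 3) with 1 array left out. Of the calls, 67.1% were higher, against 55.4% with quantile normalization, and 83.5% without ambient replicate 3. The lower calls were 241 with no variance trend, 521 with quantile normalization and 520 with the replicate block. With 1 array left out they were 44 (without ambient replicate 3) to 346 (without hypoxia replicate 3). Array weights gave 945 higher and 499 lower calls. Of the 13 kept probe sets of the HIF subunits, hydroxylases, Vhl and Cited2, 2 were called, against 3 with array weights, 1 with no variance trend and 0 to 1 with 1 array left out. The sign of Epas1 at 1369703_at (-0.08) turned with array weights (0.020), and with 1 array left out it ranged from -0.19 to 0.043. With 1 array left out, the difference of Egln1 at 1375262_at (-0.01) ranged from -0.097 to 0.042. The change of Epas1 at 1398333_at minus Hif1a then ranged from -0.045 to 0.038. The replicate block changed no call of these 13 probe sets. Same-numbered arrays did not deviate together (correlations 0.012, 0.071 and 0.070), so the numbers were not taken to pair the arrays. The 3 arrays per group limit what can be called, and Hif3a lay at background. The causes of these changes were not tested.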
